A study of Mus musculus with 12 samples.

Results

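Mice lacking Nron were compared with wild-type mice after the same heart surgery. Nron is a long noncoding RNA, and the comparison took in 8 of the 12 sequenced libraries. The 4 libraries labelled as transverse aortic constriction in Nron knockout mice (TAC KO) were set against the 4 labelled as the same operation in wild-type mice (TAC WT). The other 4 libraries, from sham-operated wild-type mice (Sham WT), are given beside some of the results as a reference. Transverse aortic constriction (TAC) narrows the aorta and makes the left ventricle pump against a higher pressure. Hearts were collected at 6 weeks, and libraries of polyadenylated RNA were made from 250 ng of total RNA with a directional kit. All 8 compared libraries therefore share the constriction, its duration and the tissue, and the labelled difference between them is the Nron genotype. How the knockout allele was made, the strain and age of the mice and the part of the heart sampled are not given in the sources used here. The sex is not labelled either, and levels of sex-linked genes are given below. The labels also do not say that each library came from a separate animal, so p-values measure only the spread between these samples. No knockout library after sham surgery was analysed here, so a difference that needs the constriction and one that does not cannot be told apart.

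Nron, the noncoding repressor of NFAT, is known to form a complex of RNA and proteins that holds phosphorylated NFAT transcription factors in the cytoplasm. In heart muscle cells under load, the calcium-activated phosphatase calcineurin removes these phosphates, and NFAT enters the nucleus and acts with other factors such as GATA4 on genes of growth and stress. A loaded ventricle is known to return to a fetal pattern of gene expression, with natriuretic peptides and fetal muscle proteins, and to burn less fatty acid. These points are background and not results of these libraries.

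Levels are given as CPM, read counts scaled to the size and composition of each library. Differences are log2 values of TAC KO over TAC WT, each with its fitted standard error (SE). A gene was called when its edgeR p-value, adjusted over all 15477 tested genes, was under 0.05. CPM values are not divided by gene length, so levels are compared within a gene and not between genes. In all, 5110 genes were called (33.0%), of which 2428 were higher in TAC KO (15.7%) and 2682 lower (17.3%). These shares are the background against which the count of any gene group has to be read. The median log2 difference over all tested genes was -0.00. Of the called genes 1332 differed by at least 1.5-fold (8.61%). In all 451 genes were called with a difference of at least 2-fold (2.91%), 216 of them higher (1.4%) and 235 lower (1.52%). In 4408 genes (28.5%) the 4 values of one TAC group all lay above the 4 of the other. TAC KO was the upper group in 2063 of these genes and the lower group in 2345.

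Library totals ran from 28565856 to 35777820 counts in TAC KO and from 26288519 to 35945770 in TAC WT. A gene without a count in a library could still be present at up to 3 counts, or 0.0835 to 0.114 CPM. Neither annotated record of Nron had a count in any of the 12 libraries, and the longer record lies on chromosome 2 from 33805816 to 33813591 of GRCm38. The labelled loss of Nron could therefore not be checked in these counts. Jund, a transcription factor gene that most tissues express, was also near 0, with at most 0.143 CPM in any library, so a low count here need not mean that the RNA was absent. The heart label was checked with Myh6, the main myosin heavy chain of the adult mouse heart, which was at 22975 to 25735 CPM in TAC KO and 22693 to 27489 in TAC WT. The atrial genes Sln and Myl7 stayed at or under 0.399 CPM in every library, so the samples showed little atrial muscle. Xist, the RNA that silences an X chromosome in female cells, was at or under 0.277 CPM in all 12 libraries. The Y-linked genes checked were at 15.8 CPM or more in each, so every library had the pattern of male tissue.

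The libraries differed by group in a measure that is not tied to any single gene. For each library the median level of GC-rich genes was set against that of GC-poor genes, both relative to the mean of the 8 TAC libraries. The highest minus the lowest quintile of GC content was 0.0568 to 0.382 on the log2 scale in TAC KO, -0.200 to -0.0967 in TAC WT and -0.172 to -0.0843 in Sham WT. The longest minus the shortest quintile of exonic length was -0.203 to -0.103 in TAC KO, -0.00117 to 0.215 in TAC WT and 0.0466 to 0.171 in Sham WT. TAC KO therefore lay outside both wild-type groups in both measures. Between TAC KO and TAC WT each measure had a two-sided exact permutation p of 0.0286, the smallest that 4 against 4 allows. Adjusted over the 6 library measures compared, p was 0.0857. Total counts, the number of genes with a count, the share of mitochondrially encoded genes and the share of the 10 most abundant genes overlapped between the groups, with exact p from 0.171 to 0.886.

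**Figure D1:**
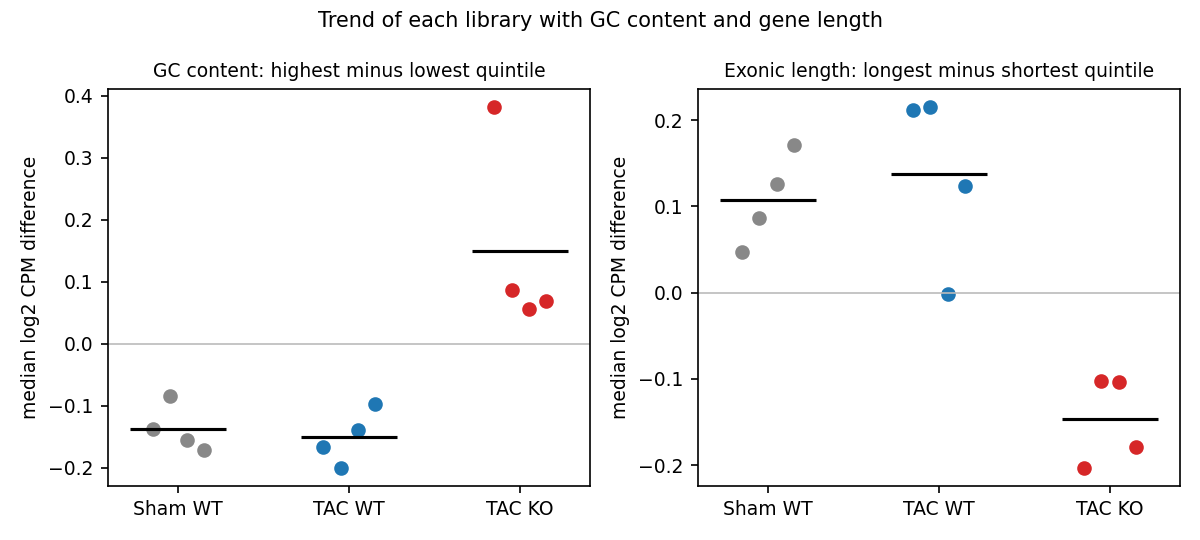
Each point is 1 library; the vertical axes give the median log2 CPM difference between the highest and lowest quintiles of GC content (left) and between the longest and shortest quintiles of exonic length (right), and lines mark group means. The 4 TAC KO libraries lie above all 8 wild-type libraries for GC content, with 1 at 0.382, and below all 8 for length.

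These trends reach into the gene counts. In the quintile of lowest GC content 5.20% of genes were called higher and 30.3% lower in TAC KO, and in the highest quintile 25.9% were higher and 6.69% lower. Of the shortest genes 21.2% were higher and 6.56% lower, and of the longest 6.85% were higher and 35.3% lower. When each library's trends were removed, the calls in the lowest and highest GC quintiles became 14.7% against 14.7% and 11.1% against 12.7%. Among the shortest genes they became 10.2% higher against 8.98% lower, and among the longest 13.6% against 19.04%, so an imbalance remained in the longest genes. With the trends removed 4237 genes were called (27.4%), 2044 higher (13.2%) and 2193 lower (14.2%). Of the 5110 genes above, 3391 were also called in that fit, with 1 of opposite sign. Counts of gene groups below are therefore also given with the trends removed where they move by over 1.5 times and by more than 1 gene, and for most other groups as well. The part of the trends in a group's change was not tested beyond this.

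TAC KO 1 stood apart from the other libraries of its group. Its GC trend was 0.382, where TAC KO 2 to 4 were at 0.0568 to 0.0874. It also differed in genes of the daily clock. Dbp, a transcription factor that cycles strongly over the day, was at 208 CPM in TAC KO 1, at 23.7, 13.3 and 33.9 in TAC KO 2 to 4, and at 16.8, 47.4, 18.7 and 48.5 in TAC WT. The clock repressor Per2 was at 30.1 CPM in TAC KO 1 and at 4.95, 5.10 and 5.07 in the others, with TAC WT at 7.60 to 11.4. Arntl, which encodes the clock activator BMAL1, was lowest in TAC KO 1, at 5.74 CPM against 23.0 to 35.5 in the other TAC KO libraries and 19.4 to 34.9 in TAC WT. Dbp, Per2 and Arntl did not pass between the groups (adjusted p = 0.221, 0.849 and 0.811), and without TAC KO 1 Per2 was lower in TAC KO by a log2 difference of -1.01 (adjusted p = 0.00173). Of 19 clock genes 1 was called higher and 3 lower, or 5 lower without TAC KO 1 and 1 lower without TAC WT 1, and none with the trends removed. The time of day at which hearts were taken is not given in the sources used here. Without TAC KO 1, 4064 of 15676 tested genes were called (25.9%), 1859 higher (11.9%) and 2205 lower (14.1%), and counts of gene groups below are given without it, or without another library, where they move by over 1.5 times and by more than 1 gene.

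**Figure D2:**
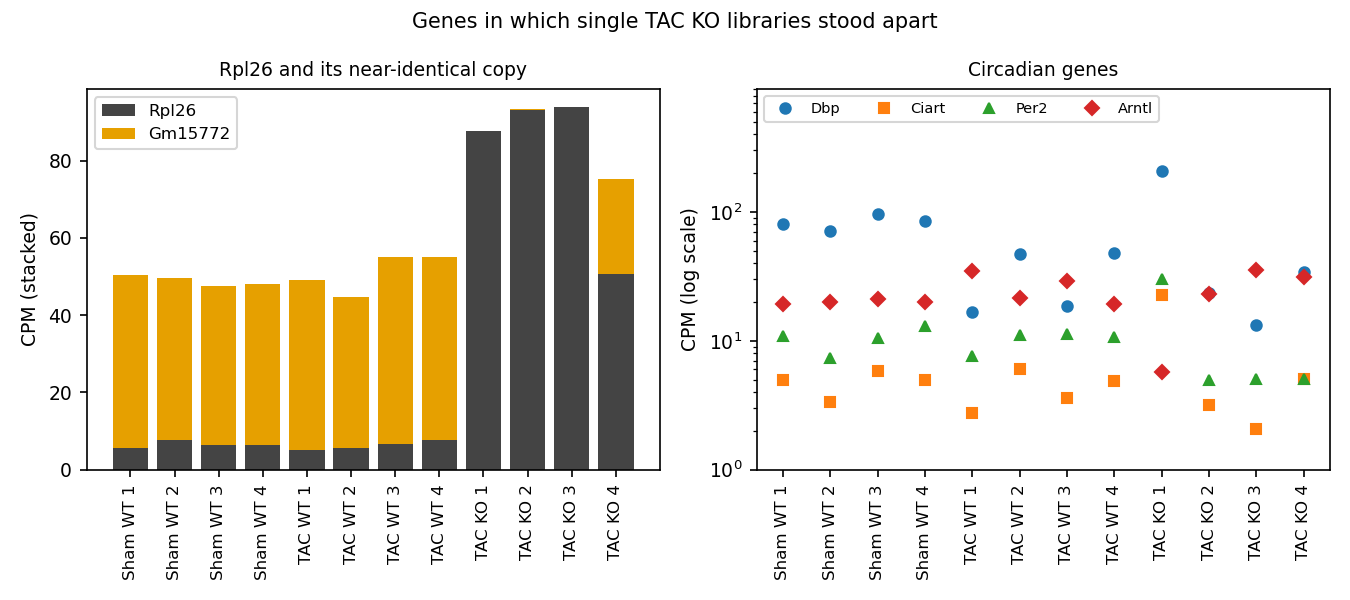
Bars (left) give the CPM of Rpl26 and of its near-identical copy Gm15772 stacked in each of the 12 libraries, and points (right) give the CPM of 4 circadian genes on a log axis. TAC KO 4 is the one TAC KO library with Gm15772 above 1 CPM, and TAC KO 1 is the highest library in Dbp and Per2 and the lowest in Arntl.

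The 3 genes given as markers of the comparison showed complete separation of the groups. Tnni3k encodes a protein kinase of heart muscle cells that binds cardiac troponin I, and it lies on chromosome 3 from 154786291 to 155055407 (ENSMUSG00000040086.13). It was at 112, 119, 92.9 and 114 CPM in TAC KO and at 19.2, 18.01, 16.9 and 14.99 CPM in TAC WT. Every TAC KO library was above every TAC WT library, and the Sham WT mean of 22.8 CPM lay with TAC WT. The log2 difference was 2.66 (SE 0.10, adjusted p = 1.604e-09), and 2.61 with the trends removed.

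Akt1 encodes a kinase that carries insulin and growth factor signals to cell growth and survival. It lies on chromosome 12 from 112653821 to 112674884 (ENSMUSG00000001729.14). Its level was 230, 250, 249 and 251 CPM in TAC KO and 122, 118, 125 and 117 CPM in TAC WT. The groups did not overlap, and the Sham WT mean of 154 CPM lay between them. The log2 difference was 1.02 (SE 0.05, adjusted p = 4.267e-08), and 0.89 with the trends removed. Nppa encodes atrial natriuretic peptide, a hormone that a loaded ventricle makes, and lies on chromosome 4 from 148000722 to 148002079 (ENSMUSG00000041616.9). Its level was 1138, 1065, 1281 and 985 CPM in TAC KO and 3468, 2820, 3485 and 4782 CPM in TAC WT. All 4 TAC KO libraries were below all 4 TAC WT libraries and above the Sham WT mean of 399 CPM (log2 -1.70, SE 0.17).

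**Figure D3:**
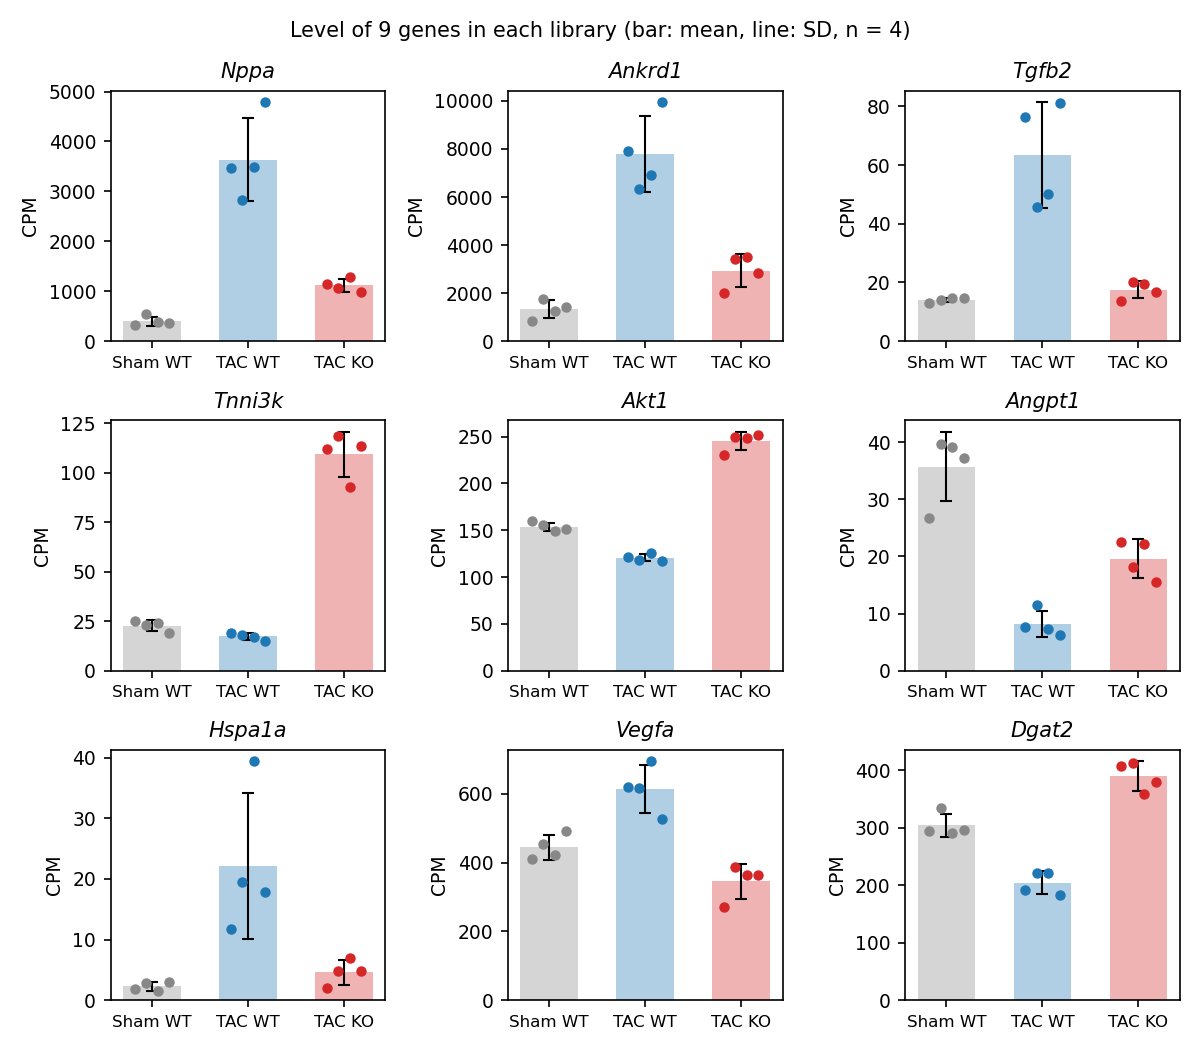
Each panel gives the CPM of 1 gene in Sham WT, TAC WT and TAC KO, with a point per library, a bar for the mean and a line for the SD (n = 4). Tnni3k, Akt1, Angpt1 and Dgat2 are higher in all 4 TAC KO than in all 4 TAC WT libraries, and Nppa, Ankrd1, Tgfb2, Hspa1a and Vegfa are lower.

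Among genes with an established symbol and at least 1 CPM, several of the highest folds, besides those of Tnni3k and Rpl26, were in genes of low level. Rab6b, a small GTPase of vesicle traffic, was at 14.0, 12.1, 12.03 and 14.5 CPM in TAC KO and 0.519, 0.246, 0.679 and 1.73 CPM in TAC WT. The lowest TAC KO library was therefore several times the highest TAC WT library, and the log2 difference was 4.11 (SE 0.40, adjusted p = 1.901e-05). Igfals encodes the acid-labile subunit that carries insulin-like growth factors in plasma, and it was at 7.59, 7.88, 9.09 and 7.93 CPM in TAC KO against 1.09, 1.14, 1.004 and 0.257 CPM. Cubn, a receptor for vitamin B12 complexes, was at 5.18 to 6.56 CPM against 0.929 to 2.06 CPM. Scd4, a stearoyl-CoA desaturase of the heart, was at 3.64, 9.29, 10.8 and 9.13 CPM against 1.09, 1.82, 1.83 and 0.845 CPM, with TAC KO 1 lowest in its group. The alcohol dehydrogenase gene Adh1 was at 25.9, 6.43, 14.5 and 12.5 CPM against 3.25, 5.36, 3.16 and 3.53 CPM, so its groups nearly touched at TAC KO 2 and TAC WT 2.

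The strongest falls among genes of the same kind included Syndig1, Ppm1e, Serpinb1c and Dok5. Syndig1, which encodes a membrane protein of synapses, was at 0.240, 0.836, 0.855 and 0.372 CPM in TAC KO and 4.87, 2.34, 1.95 and 4.15 CPM in TAC WT, with a Sham WT mean of 0.141 CPM (log2 -2.51, SE 0.40). Ppm1e, a protein phosphatase, was at 11.5, 13.7, 14.7 and 15.5 CPM against 58.6, 36.1, 42.1 and 47.4 CPM, with a Sham WT mean of 14.5 CPM. The spread within each group was small beside the gap between them (log2 -1.73, SE 0.13, adjusted p = 3.919e-06). Serpinb1c, a protease inhibitor, was at 1.58 to 4.39 CPM against 4.96 to 10.8 CPM, and the adaptor Dok5 at 0.515 to 1.23 CPM against 2.10 to 3.89 CPM. Because TAC WT enters both a comparison with TAC KO and one with Sham WT, no count is given of genes that lay between the wild-type groups.

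Genes of the fetal and stress pattern were lower in TAC KO. Of 16 tested, 11 were called lower and none higher, with a median log2 difference of -1.01, where 17.3% of all genes were called lower and the median was -0.00. With the trends removed 12 were lower and none higher, and without TAC KO 1 the counts were 10 and 0. Nmrk2, a nicotinamide riboside kinase that is induced in failing hearts, was at 9.62, 13.95, 21.5 and 14.9 CPM in TAC KO and 53.9, 29.1, 55.9 and 136 CPM in TAC WT. Ankrd1, a stretch-responsive ankyrin repeat protein of the sarcomere, was at 2004, 3401, 3513 and 2826 CPM against 7931, 6326, 6920 and 9937 CPM. The groups of Nmrk2 and Ankrd1 did not overlap, and TAC KO 1 was the lowest library in both.

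Other members of the list showed more spread. Nppb, which encodes brain natriuretic peptide, was at 381, 1080, 912 and 839 CPM in TAC KO and 1860, 1414, 1865 and 1999 CPM in TAC WT (log2 -1.15, SE 0.27, adjusted p = 0.00582). Rcan1, whose product binds calcineurin and whose gene is a known calcineurin target, was at 133, 305, 448 and 316 CPM against 740, 386, 609 and 727 CPM. The groups of Rcan1 overlapped, since TAC KO 3 was above TAC WT 2. Myh7, the slow myosin heavy chain, was at 445, 1100, 1205 and 911 CPM against 2763, 2031, 1017 and 3250 CPM and also overlapped. Its transcript is 97.9% identical to that of Myh6 over the aligned stretch, so reads could be split between them. Synpo2l, an actin-binding protein of the Z-disc that is not in the list and had one of the largest falls in CPM, was at 236, 369, 355 and 351 CPM against 1086, 519, 668 and 1009 CPM.

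The stretch of 250 bases before the RefSeq start of 2 genes of this group is shown because these genes fell together. They are Nppa on the plus strand (chr4:148000472-148000721) and skeletal actin Acta1 on the minus strand (chr8:123894776-123895025), both in GRCm38.p6 and 5′ to 3′. Capitals mark a CArG box, the site of serum response factor.
Nppa: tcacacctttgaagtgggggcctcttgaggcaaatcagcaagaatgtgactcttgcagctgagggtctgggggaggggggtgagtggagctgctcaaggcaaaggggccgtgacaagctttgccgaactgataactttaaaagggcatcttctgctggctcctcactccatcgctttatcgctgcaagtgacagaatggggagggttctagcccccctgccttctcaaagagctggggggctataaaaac
Acta1: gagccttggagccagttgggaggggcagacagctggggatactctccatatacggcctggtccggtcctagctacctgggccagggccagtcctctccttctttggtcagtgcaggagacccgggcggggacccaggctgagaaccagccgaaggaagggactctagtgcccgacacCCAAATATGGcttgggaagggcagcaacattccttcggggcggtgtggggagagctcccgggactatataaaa
The capitals in Acta1 lie from 73 to 64 bases before the start. Acta1 itself was at 2653, 3969, 4297 and 3326 CPM in TAC KO and 7917, 5759, 6531 and 8830 CPM in TAC WT, with no overlap (log2 -1.03, SE 0.21, adjusted p = 0.00231). A search of both strands for the NFAT core GGAAAA, the GATA site AGATAA, the heat shock element GAANNTTC and the CArG box covered 11154 promoters of tested genes, and matches of different motifs may share bases. The NFAT core was in 18.7% of all of them, in 18.6% of those of genes called higher and in 19.2% of those of genes called lower. It was in 0 of the 10 promoters of fetal and stress genes called lower that were found in the table. The RefSeq start of some of these genes lay away from the annotated start, by 255 bases in Ankrd1, 112 in Nppb and 4698 in Rcan1. The GATA site was in 2 of these 10, Ankrd1 and Nppb, against 5.87% of all promoters, and the CArG box in 1 of 10, against 1.17%. The heat shock element was in 2 of these 10, against 4.92% of all promoters. Only the form AGATAA was searched, so the TGATAA in the Nppa stretch above was not counted. A match is only a match of letters in this window.

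Of 24 genes of calcineurin and NFAT signalling 2 were called higher and 8 lower, with a median of -0.20, and with the trends removed the counts were 1 and 7. The median GC content of this list was 46.0%, where that of all tested genes was 49.6%. Nfat5, the NFAT member that responds to salt and does not bind calcineurin, was at 33.3, 40.3, 46.3 and 38.5 CPM in TAC KO and 61.0, 61.1, 62.8 and 63.5 CPM in TAC WT (log2 -0.65, SE 0.09, adjusted p = 0.000205), and the log2 difference was -0.41 with the trends removed. Gsk3b, a kinase that rephosphorylates NFAT, was at 52.8 to 61.6 CPM against 64.2 to 84.7 CPM (log2 -0.38, SE 0.08, adjusted p = 0.00251). Genes of the known Nron complex and its partners gave 1 higher and 7 lower of 13, but 3 higher and 2 lower with the trends removed, and 1 higher and 4 lower without TAC KO 1 or without TAC WT 1.

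In insulin and growth factor signalling, genes moved in both directions. Of 33 genes of the PI3K, Akt and mTOR pathway 9 were called higher and 12 lower, a share of 63.6% against 33.0% of all genes. With the trends removed the counts were 6 and 5, and the median exonic length of this list was 8449 bases against 4130.5 for all tested genes. Akt2, a relative of Akt1 with a role in insulin action, was higher in TAC KO, at 118, 103, 95.9 and 106 CPM against 82.2, 92.6, 76.2 and 77.3 CPM (log2 0.37, SE 0.08, adjusted p = 0.00241). Its groups did not overlap, and it remained called with the trends removed. A processed pseudogene is 99.1% identical to Akt2 over the aligned stretch, so reads could be split. The receptor gene Igf1r was at 26.7, 30.2, 29.7 and 27.5 CPM against 54.7, 46.5, 43.9 and 48.8 CPM (log2 -0.77, SE 0.08). Eif4ebp1, a brake on translation that mTOR releases, was at 59.5 to 75.0 CPM against 36.7 to 54.7 CPM (log2 0.55, SE 0.11).

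Of 35 growth factor and receptor genes 6 were called higher and 6 lower, a share close to the 33.0% of all genes, and 5 and 7 with the trends removed. The members of smallest p included genes of vessel growth. Vegfa, the main endothelial growth factor, was at 270, 387, 363 and 363 CPM in TAC KO and 619, 618, 695 and 526 CPM in TAC WT (log2 -0.83, SE 0.11, adjusted p = 0.000147). Its receptors fell with it. Flt1 was at 140, 129, 151 and 130 CPM against 219, 222, 267 and 216 CPM (log2 -0.75, SE 0.09), and Kdr at 196 to 243 CPM against 297 to 403 CPM (log2 -0.62, SE 0.11). Angpt1, the ligand that activates the endothelial receptor Tek, was at 22.5, 18.2, 22.2 and 15.5 CPM against 7.63, 11.5, 7.29 and 6.25 CPM (log2 1.26, SE 0.18, adjusted p = 0.000257). No TAC KO library overlapped with TAC WT in Vegfa, Flt1, Kdr or Angpt1.

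Hbegf, a ligand of the epidermal growth factor receptor, was at 18.2, 39.3, 28.4 and 24.2 CPM in TAC KO and 98.0, 48.4, 75.1 and 85.7 CPM in TAC WT (log2 -1.48, SE 0.21). Receptors for stress hormones lay higher in TAC KO. The angiotensin II receptor Agtr1a was at 37.1, 32.2, 25.0 and 32.0 CPM against 17.9, 20.8, 15.4 and 16.5 CPM, with a Sham WT mean of 36.1 CPM (log2 0.84, SE 0.11, adjusted p = 0.000155). The alpha-1B adrenergic receptor Adra1b was at 33.0, 27.7, 30.7 and 31.5 CPM against 17.4, 17.6, 15.9 and 18.7 CPM (log2 0.82, SE 0.11). The beta-1 receptor Adrb1 was at 18.4 to 24.0 CPM against 14.3 to 16.3 CPM (log2 0.45, SE 0.09, and 0.28 with the trends removed). These rises were not a feature of the whole beta-adrenergic and cyclic nucleotide list, of whose 23 genes 3 were called higher and 6 lower, or 5 higher without TAC KO 3 or TAC WT 2.

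Genes of TGF-beta signalling and the CCN proteins, which drive and modulate fibrosis, included 6 called lower and none called higher of 23, with a median of -0.14. With the trends removed 3 were higher and 6 lower. Tgfb2 was at 13.8, 19.996, 19.6 and 16.7 CPM in TAC KO and 76.4, 45.7, 50.3 and 81.2 CPM in TAC WT, and its Sham WT mean was 14.1 CPM (log2 -1.85, SE 0.17, adjusted p = 1.289e-05). Tgfb3 was at 21.3, 22.6, 19.6 and 17.7 CPM against 37.7, 32.3, 39.2 and 34.9 CPM (log2 -0.83, SE 0.08). The inhibitor Smad7 was at 17.9 to 29.0 CPM against 34.3 to 40.7 CPM. Ccn2, connective tissue growth factor, was at 94.99, 279, 196 and 200 CPM against 679, 433, 588 and 716 CPM, and the stress hormone gene Gdf15 at 2.06 to 6.59 CPM against 7.60 to 16.5 CPM. None of these 5 genes overlapped between the groups. Of 30 collagen and cross-linking genes 1 was called higher and 6 lower, and the strongest of these was P4ha1, a prolyl hydroxylase needed for collagen folding, at 65.4 to 85.2 CPM against 132 to 182 CPM (log2 -1.02, SE 0.10, adjusted p = 2.281e-05). Of 38 matricellular and other matrix genes 5 were higher and 3 lower, and over the fits that left out 1 library each 2 to 7 were higher and 2 to 5 lower.

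Of 17 potassium channel genes 6 were called higher in TAC KO and none lower, with a median of 0.10, and 5 were higher both with the trends removed and without TAC KO 1. These channels end the cardiac action potential. Kcne1, the small subunit of the slow delayed rectifier, was at 2.06, 5.59, 4.65 and 4.90 CPM in TAC KO and 1.12, 1.05, 1.30 and 1.65 CPM in TAC WT (log2 1.76, SE 0.26, adjusted p = 0.000285). Its partner Kcnq1, the pore of that channel, was at 43.4, 44.9, 51.8 and 51.0 CPM against 25.2, 27.9, 24.4 and 33.1 CPM (log2 0.79, SE 0.11, adjusted p = 0.000178). Both were higher in every TAC KO library. Kcnq1ot1, a noncoding RNA transcribed from the opposite strand within Kcnq1, went the other way, at 9.93, 12.8, 11.3 and 10.2 CPM against 23.4, 23.5, 32.0 and 20.3 CPM (log2 -1.17, SE 0.15, and -0.65 with the trends removed). Because the sources used here do not say whether counting used the strand, reads of this pair cannot be told apart with certainty. Kcnv2, a modifier of potassium channels, was at 6.90 to 10.3 CPM against 1.87 to 5.72 CPM. Kcnh2, the pore of the rapid delayed rectifier, was at 110, 60.5, 73.6 and 74.5 CPM against 38.9, 63.7, 31.7 and 45.2 CPM, and TAC WT 2 lay above TAC KO 2 (log2 0.83, SE 0.19, adjusted p = 0.00521).

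Of 17 other channel and connexin genes 4 were called higher and 1 lower, and 2 were higher without any one of TAC KO 1, TAC WT 3 or TAC WT 4. Cacna1h, a T-type calcium channel of the fetal and pacemaking heart, was at 8.65 to 10.9 CPM in TAC KO and 4.87 to 7.42 CPM in TAC WT (log2 0.76, SE 0.13). Gja1, the connexin that couples ventricular cells, was at 340, 387, 421 and 412 CPM against 500, 531, 459 and 606 CPM (log2 -0.43, SE 0.09, and -0.23 with the trends removed). In calcium cycling 2 of 17 genes were higher and 4 lower, and none was higher without any one of TAC KO 1, 2 or 4 or TAC WT 3 or 4. The scaffold Trdn, which holds the calcium release channel in place, was at 254, 309, 304 and 313 CPM against 421, 432, 477 and 435 CPM (log2 -0.58, SE 0.07), a difference that was -0.26 with the trends removed (adjusted p = 0.00541). Camk2b, a calcium-dependent kinase, was at 9.59 to 13.3 CPM against 16.7 to 18.04 CPM (log2 -0.62, SE 0.10).

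Sarcomere genes showed little difference as a list, with 3 of 20 called higher and 2 lower and a median of -0.02, or 5 higher without TAC KO 3. Myl3, the ventricular essential light chain, was the largest riser of the list in CPM, at 6838, 6523, 6276 and 6907 CPM in TAC KO and 4970, 4912, 5631 and 5215 CPM in TAC WT (log2 0.36, SE 0.07, adjusted p = 0.0012). Myh6, named above, had a log2 difference of -0.03 (adjusted p = 0.781).

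Genes of fatty acid use were higher in TAC KO. Of 28 genes of fatty acid oxidation 22 were called higher and none lower, with a median of 0.38, where 15.7% of all genes were called higher. The count was 19 with the trends removed and 21 without TAC KO 1, again with none lower. Eci2, which helps to oxidise unsaturated fatty acids, was at 149, 141, 143 and 141 CPM in TAC KO and 95.02, 103, 107 and 96.4 CPM in TAC WT (log2 0.51, SE 0.06, adjusted p = 5.632e-05). Hadh, the third step of the oxidation spiral for short chains, was at 488, 543, 450 and 518 CPM against 322, 349, 356 and 294 CPM, with a Sham WT mean of 464 CPM (log2 0.60, SE 0.08). The last step of the spiral, Acaa2, was at 730 to 816 CPM against 466 to 570 CPM. In these 3 genes all TAC KO libraries lay above all TAC WT libraries. The differences were small in fold, since the median corresponds to less than the 1.5-fold minimum used in the stricter test.

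The pathways that follow moved alike. Of 26 genes of the tricarboxylic acid cycle and its carriers 19 were called higher and 1 lower, or 20 and 0 with the trends removed. Idh2, the mitochondrial isocitrate dehydrogenase, was at 1901, 2101, 1921 and 2197 CPM in TAC KO and 1361, 1489, 1222 and 1277 CPM in TAC WT (log2 0.60, SE 0.07, adjusted p = 8.837e-05). Of 23 genes of ketone body and branched-chain amino acid breakdown 15 were higher and none lower in both fits.

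In the respiratory chain, 20 of 37 nuclear genes of complex I were called higher and none lower, and 22 of 34 genes of complexes II to V were higher and 1 lower. With the trends removed these counts were 13 and 0, and 14 and 0, and without TAC WT 1 complex I had 13 higher. Ndufv1, a core subunit of complex I, was at 889, 831, 822 and 894 CPM against 657, 701, 699 and 653 CPM (log2 0.34, SE 0.06), a difference that was 0.17 with the trends removed (adjusted p = 0.0279). Sdhd of complex II was at 439 to 512 CPM against 326 to 364 CPM. The mitochondrial ribosome had 22 of 41 genes higher and none lower, and 21 and 1 with the trends removed. None of the 9 tested mitochondrially encoded mRNAs was called, and 4 were called higher with the trends removed. The listed mRNA mt-Co3 was left untested by the low-count filter, at 0 to 5.52 CPM in TAC KO and 0.0886 to 308 CPM in TAC WT. Genes on chromosome 1 are near-identical copies of mt-Co3 and of a tested member of the list. Reads of these mRNAs could therefore be split with a copy. Antioxidant genes had 17 of 32 higher and none lower, or 12 and 1 with the trends removed.

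**Figure D4:**
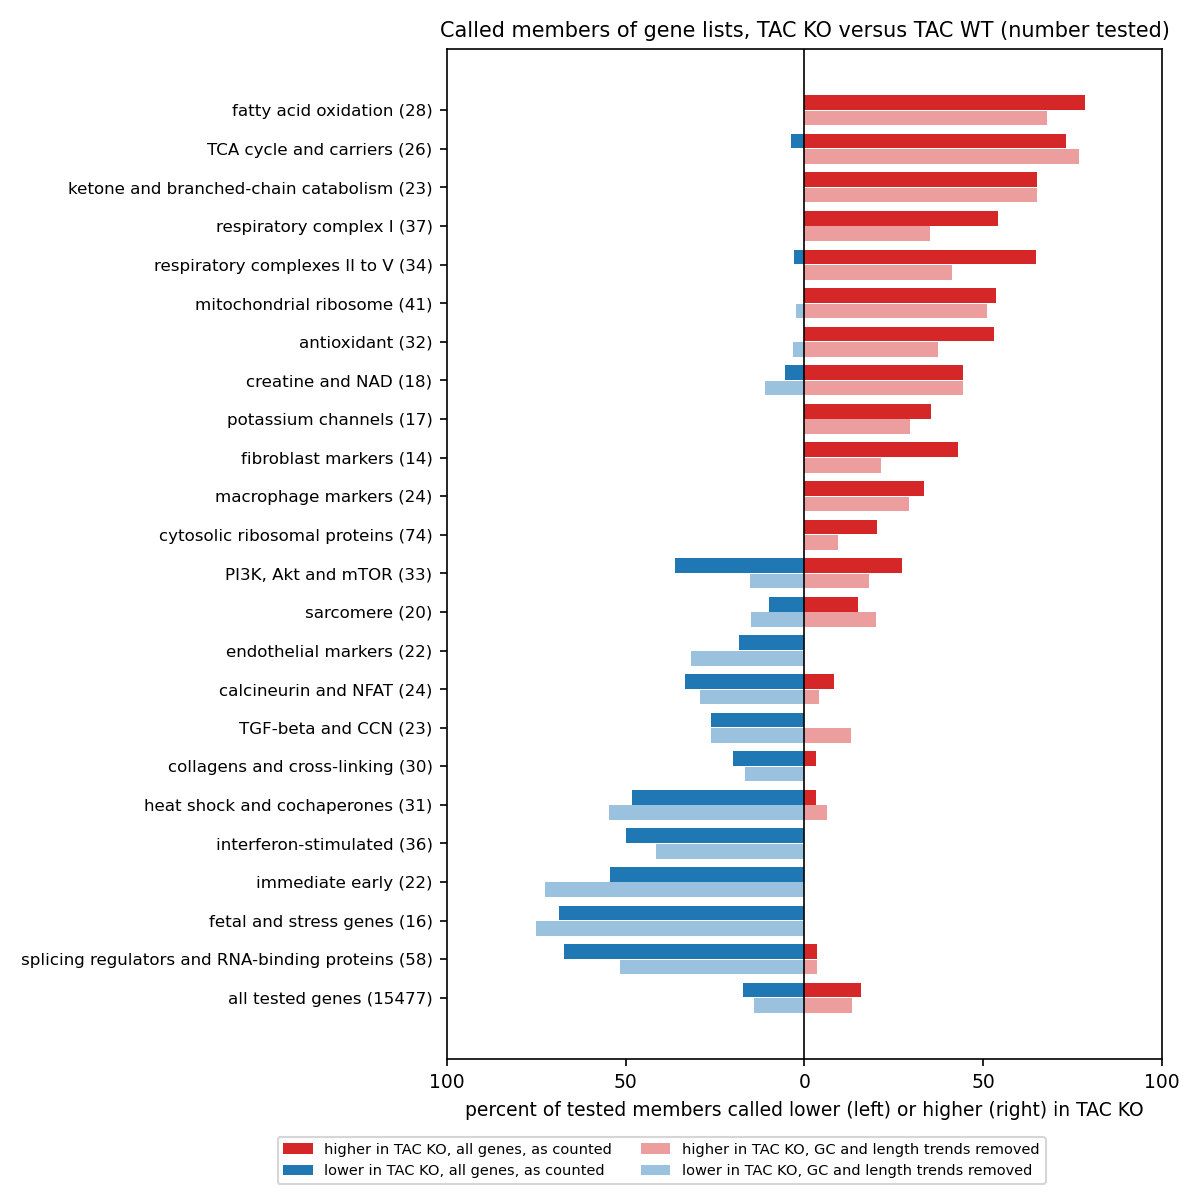
Bars give the percent of the tested members of each gene list that were called higher (right, red) or lower (left, blue) in TAC KO, dark for the counts as deposited and light with GC and length trends removed, and the number tested is in brackets. All tested genes stand at 15.7% higher and 17.3% lower; fatty acid oxidation has 22 of 28 higher, and the fetal and stress genes 11 of 16 lower.

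Glucose use was mixed, with 12 of 31 glycolysis and glucose uptake genes higher and 3 lower, or 6 and 4 with the trends removed, 7 and 4 without TAC KO 1 and 5 lower without TAC WT 3. Pfkp, the platelet-type phosphofructokinase, was at 103, 85.3, 126 and 122 CPM in TAC KO and 199, 163, 155 and 209 CPM in TAC WT, with a Sham WT mean of 83.2 CPM (log2 -0.73, SE 0.12). In lipid synthesis and storage 8 of 22 were higher and 4 lower, or 5 and 4 with the trends removed, and 4 were higher without TAC KO 1, 5 without TAC KO 3 or TAC WT 3, and 8 lower without TAC WT 2. Dgat2, the last enzyme of triglyceride synthesis, was the most significant, at 408, 413, 359 and 380 CPM against 191, 222, 222 and 184 CPM (log2 0.93, SE 0.08, adjusted p = 7.092e-06). Its groups did not overlap. Of 21 metabolic regulators 4 were higher and 2 lower, and none was lower without TAC KO 1 or without TAC KO 4. Klf15, a regulator of lipid and amino acid use, was at 59.9, 33.4, 35.8 and 44.7 CPM against 29.6, 32.8, 20.9 and 20.2 CPM (log2 0.74, SE 0.20, adjusted p = 0.0116), with TAC KO 1 highest. Ppargc1a, the coactivator of mitochondrial genes, was at 59.2 to 68.9 CPM against 60.3 to 103 CPM and did not pass (log2 -0.22, SE 0.13, adjusted p = 0.232).

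Heat shock genes, whose products refold proteins, were lower in TAC KO. Of 31 heat shock and cochaperone genes 15 were called lower and 1 higher, with a median of -0.24, and with the trends removed 17 were lower and 2 higher. In 11 of the 31 all TAC KO libraries lay below all TAC WT libraries, as they did in 2345 of all 15477 tested genes. Hspa1a, the inducible Hsp70, was at 1.96, 4.82, 6.90 and 4.75 CPM in TAC KO and 11.7, 19.5, 39.4 and 17.9 CPM in TAC WT (log2 -2.25, SE 0.37, adjusted p = 0.000587). Its neighbour Hspa1b is 99.4% identical over the aligned stretch, so reads of the pair could be split, and it was at 2.54 to 7.55 CPM against 7.16 to 23.8 CPM. Hsp90aa1, the inducible Hsp90, was at 73.1, 89.8, 112 and 108 CPM against 193, 202, 264 and 196 CPM (log2 -1.16, SE 0.13, adjusted p = 6.159e-05), and it too has near-identical pseudogenes. TAC WT 3 was the highest library in Hspa1a, Hspa1b and Hsp90aa1.

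The cochaperone Chordc1, for which no near-identical copy was found, was at 28.5, 33.7, 35.9 and 39.05 CPM against 55.6, 65.5, 64.3 and 56.6 CPM (log2 -0.82, SE 0.09, and -0.48 with the trends removed). The small heat shock protein Cryab, an abundant chaperone of desmin and titin, was at 1485 to 1734 CPM against 2027 to 2355 CPM (log2 -0.45, SE 0.07). Fkbp4, a cochaperone of steroid receptors, was the one member called higher, at 473, 455, 404 and 425 CPM against 293, 326, 401 and 277 CPM (log2 0.44, SE 0.10, adjusted p = 0.00525), and at 0.29 on the log2 scale with the trends removed.

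The 250 bases before the RefSeq start are shown for 2 genes of this group that hold the heat shock element, Hspa1a on the minus strand (chr17:34972157-34972406) and Hspb1 on the plus strand (chr5:135887669-135887918) of GRCm38.p6. Capitals mark GAANNTTC, the paired form of the repeat that heat shock factor binds.
Hspa1a: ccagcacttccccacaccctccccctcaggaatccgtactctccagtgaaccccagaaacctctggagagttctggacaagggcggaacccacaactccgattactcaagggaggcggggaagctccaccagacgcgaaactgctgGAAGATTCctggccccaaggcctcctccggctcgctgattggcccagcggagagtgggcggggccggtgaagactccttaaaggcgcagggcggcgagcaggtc
Hspb1: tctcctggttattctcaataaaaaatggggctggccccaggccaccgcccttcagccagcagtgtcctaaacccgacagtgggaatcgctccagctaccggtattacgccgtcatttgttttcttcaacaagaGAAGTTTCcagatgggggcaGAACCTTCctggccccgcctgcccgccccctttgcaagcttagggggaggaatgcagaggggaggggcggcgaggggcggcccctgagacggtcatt
The element lies from 104 to 97 bases before the start in Hspa1a. In Hspb1 it is present from 117 to 110 and again from 97 to 90 bases before the start. Hspb1, a small heat shock protein, was at 116, 141, 169 and 141 CPM in TAC KO and 167, 184, 260.5 and 242 CPM in TAC WT (log2 -0.59, SE 0.14, adjusted p = 0.00664), and TAC KO 3 lay above TAC WT 1. Of the 12 promoters found for heat shock genes called lower, 4 held the element (33.3%), and of the 12 found for those not called, 2 held it (16.7%). The promoter of Fkbp4, the member called higher, also held it. Among the 4 called lower is a gene whose RefSeq start lay 318 bases from the annotated start. The element was in 4.92% of all 11154 promoters, in 5.41% of those of genes called higher and in 5.03% of those of genes called lower.

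Immediate early genes, which are transcribed within minutes of a stimulus and also respond to tissue handling, were lower as well. Of 22 tested 12 were called lower and none higher, with a median of -0.64, and 16 were lower with the trends removed. Egr3 was at 3.06, 3.15, 5.42 and 3.03 CPM in TAC KO and 8.75, 6.31, 12.6 and 14.3 CPM in TAC WT (log2 -1.51, SE 0.31). The nuclear receptor Nr4a3 was at 2.95 to 5.84 CPM against 8.38 to 12.3 CPM, and the stress factor Atf3 at 7.94 to 19.5 CPM against 22.3 to 41.8 CPM. The groups of these 3 genes did not overlap. Fos, at 29.0, 17.04, 30.6 and 9.82 CPM against 36.5, 30.5, 56.0 and 43.0 CPM, did not pass (log2 -0.94, SE 0.46, adjusted p = 0.130), but it passed when the 8 TAC libraries were fitted alone (adjusted p = 0.0432). How long each heart was handled before freezing is not given in the sources used here, and its part in these values was not tested.

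The list with the largest number of called members was that of splicing regulators and RNA-binding proteins, with 39 of 58 called lower and 2 higher and a median of -0.34. In 37 of the 58 all TAC KO libraries lay below all TAC WT libraries, against 2345 of all 15477 tested genes. The list's genes were poor in GC, with a median of 43.9%, and long, with a median exonic length of 6945.5 bases, and both properties moved with the group as described above. With the trends removed 30 were lower and 2 higher, and without TAC KO 1 36 and 2. Summed over the list, the level was 5254 to 6254 CPM in TAC KO, 7376 to 7550 CPM in TAC WT and 7433 to 7917 CPM in Sham WT. Taf15, an RNA-binding protein, was at 31.0, 33.0, 33.0 and 29.4 CPM in TAC KO and 58.7, 57.2, 66.1 and 59.8 CPM in TAC WT (log2 -0.94, SE 0.06, adjusted p = 4.386e-07), and -1.01 with the trends removed. The splicing factor Rbm25 was at 74.1, 82.2, 95.2 and 75.3 CPM against 144, 142, 161 and 166 CPM, a log2 difference of -0.91 that became -0.54 with the trends removed. The cold-inducible protein Cirbp was one of the 2 members called higher, at 41.1 to 50.9 CPM against 27.7 to 30.1 CPM (log2 0.66, SE 0.09, adjusted p = 0.00016).

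Of 21 long noncoding RNAs tested 7 were called lower and 1 higher, and 6 and 0 with the trends removed. Summed over the list, the level was 2032 to 2360 CPM in TAC KO, 4075 to 4960 CPM in TAC WT and 4741 to 5213 CPM in Sham WT. Malat1, an abundant RNA of nuclear speckles, was at 1095, 1178, 1329 and 1053 CPM in TAC KO and 2693, 2840, 3273 and 2977 CPM in TAC WT (log2 -1.34, SE 0.09). Neat1, the scaffold of paraspeckles next to it, was at 793 to 886 CPM against 1114 to 1457 CPM (log2 -0.57, SE 0.08). Both RNAs are kept in the nucleus, and the share of nuclear RNA in each sample was not measured.

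Interferon-stimulated genes, which cells turn on against viruses and free nucleic acid, were lower. Of 36 tested 18 were called lower and none higher, with a median of -0.36, and 15 were lower with the trends removed and 16 without TAC KO 1. Trim30a was at 9.45, 12.3, 13.1 and 13.0 CPM in TAC KO and 18.7, 18.5, 24.3 and 23.2 CPM in TAC WT (log2 -0.82, SE 0.12, adjusted p = 0.000303). Ifit2, a binder of foreign RNA, was at 16.4, 17.8, 13.4 and 14.8 CPM against 24.1, 22.2, 32.7 and 27.7 CPM (log2 -0.77, SE 0.12). Ifi44 was at 4.33 to 6.53 CPM against 9.02 to 16.4 CPM, with a Sham WT mean of 9.01 CPM. These 3 genes did not overlap between the TAC groups. Of 34 cytokine and chemokine genes 6 were lower and none higher, or 4 and 0 without TAC KO 1, while 2 were higher without TAC KO 2. The chemokine Cxcl1 was at 5.87, 3.70, 3.25 and 3.01 CPM against 8.56, 6.53, 9.54 and 10.5 CPM (log2 -1.16, SE 0.27). Il6 was at 0.103 to 1.14 CPM against 0.431 to 3.82 CPM and did not pass (adjusted p = 0.0702), but it passed without TAC KO 3 (adjusted p = 0.0121) and without TAC WT 2 (adjusted p = 0.0314).

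Markers of other heart cells moved to different degrees, and in bulk RNA fewer cells of a type and less RNA per cell cannot be told apart. Of 24 macrophage markers 8 were called higher and none lower, with a median of 0.28, and 7 and 0 with the trends removed, while 2 were lower without TAC KO 3 or TAC WT 2. Summed over the list, the level was 386 to 509 CPM in TAC KO, 279 to 396 CPM in TAC WT and 298 to 356 CPM in Sham WT. The highest of these rises was in Timd4 and Folr2, while 16 of the 24 markers did not pass. Timd4, a receptor for dying cells, was at 1.58, 1.16, 1.57 and 1.15 CPM against 0.683, 0.646, 0.502 and 0.661 CPM (log2 1.12, SE 0.23), and the folate receptor Folr2 at 8.93, 9.42, 6.61 and 5.01 CPM against 4.10, 2.74, 4.19 and 3.64 CPM (log2 1.02, SE 0.20). The complement gene C1qb, also made by macrophages, was at 42.6 to 50.05 CPM against 23.5 to 34.3 CPM. All 3 separated the groups.

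Of 14 fibroblast markers 6 were called higher and none lower, with a median of 0.33, and 3 and 0 with the trends removed. Their summed level was 1838 to 2161 CPM in TAC KO, 1561 to 1846 CPM in TAC WT and 1407 to 1631 CPM in Sham WT. Scara5, a ferritin receptor of fibroblasts, was at 23.2, 20.1, 15.5 and 16.5 CPM in TAC KO and 8.23, 11.02, 13.2 and 5.47 CPM in TAC WT (log2 0.98, SE 0.22, adjusted p = 0.00396). Of 22 endothelial markers 4 were called lower and none higher, with a median of -0.15, and 7 and 0 with the trends removed. Their summed level was 2732 to 3167 CPM in TAC KO and 3166 to 3832 CPM in TAC WT, and 2932 to 3333 CPM in Sham WT. Besides Flt1 and Kdr above, the natriuretic peptide clearance receptor Npr3 was at 16.3, 13.4, 12.7 and 13.6 CPM against 36.2, 30.9, 19.1 and 22.2 CPM (log2 -0.96, SE 0.16), and Tek at 57.4 to 63.9 CPM against 70.5 to 87.2 CPM. The general endothelial marker Pecam1 was at 180 to 222 CPM against 204 to 246 CPM and did not pass (log2 -0.15, SE 0.07, adjusted p = 0.119), but leaving out TAC WT 2 gave an adjusted p of 0.0453. How far the endothelial markers bear on the values of Vegfa, Flt1 and Kdr was not tested.

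Of 16 smooth muscle and pericyte markers 6 were higher and 1 lower, while their summed level was 4747 to 5147 CPM in TAC KO and 5106 to 5484 CPM in TAC WT. Of 9 tested neutrophil and mast cell markers 3 were higher and none lower, and the defining neutrophil genes Ly6g and Elane were at or near 0. The mast cell protease Tpsb2 was at 0.550 to 1.17 CPM against 0.147 to 0.410 CPM. Summed over the list, the level was 11.99 to 26.7 CPM in TAC KO and 10.99 to 16.8 CPM in TAC WT. Lymphocyte markers gave 1 higher and 1 lower of 13, red cell and platelet markers none of 10, nerve and glia markers 1 and 1 of 10, and adipocyte markers 1 and 0 of 5, with Adipoq and Plin1 at or under 0.859 CPM. Of 5 epicardial and mesothelial markers Msln was higher, at 0.515 to 1.06 CPM against 0.0295 to 0.492 CPM (log2 1.91, or 3.07 without TAC WT 1), and Wt1 was lower, at 3.85 to 6.27 CPM against 6.83 to 11.3 CPM.

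Some of the largest differences involved genes with near-identical copies. Rpl26, a protein of the large ribosomal subunit, was at 87.6, 93.2, 93.7 and 50.7 CPM in TAC KO and 5.14, 5.54, 6.61 and 7.61 CPM in TAC WT (log2 3.71, SE 0.19, adjusted p = 4.267e-08). Gm15772, a processed pseudogene on chromosome 5 with 99.5% identity to it, was at 0.103, 0.0643, 0.0855 and 24.6 CPM in TAC KO and 43.9, 39.1, 48.3 and 47.5 CPM in TAC WT. Its log2 difference was -2.81 (adjusted p = 0.0255), or -8.99 without TAC KO 4, and it did not pass without TAC KO 1 (adjusted p = 0.0573). The sum of the pair was 87.7, 93.3, 93.8 and 75.3 CPM against 49.0, 44.7, 54.9 and 55.1 CPM, and its groups did not overlap either. The gap in the sum was thus far smaller than the gap in Rpl26 alone, and reads of the pair cannot be told apart with certainty. Of the 74 cytosolic ribosomal protein genes tested, Rpl26 included, 15 were called higher and none lower, with a median of 0.13, or 7 and 0 with the trends removed, and leaving out 1 library each gave 7 higher without TAC WT 1 to 34 without TAC WT 4. TAC KO 4 had intermediate values in both genes. Eno1b, a copy of the enolase gene Eno1 with 99.5% identity, had 2 counts over the 4 TAC KO libraries together, 576 over TAC WT and 559 over Sham WT. The processed pseudogene Gm4735, with 99.6% identity to Eno1, had 4 counts against 225. The sum of Eno1 and Eno1b was 89.4 to 106 CPM in TAC KO and 77.7 to 91.2 CPM in TAC WT.

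The noncoding RNA E330017L17Rik on chromosome 4, from 129906216 to 129919787, had 196 counts in TAC KO, with 29 to 77 in each library, and 0 in all TAC WT and Sham WT libraries. Against a limit of 3 counts over the TAC WT group it was at least 64.6-fold higher in TAC KO. Of 14 tested genes whose level is known to vary among inbred mice, 4 were called higher, Tnni3k among them, and 1 lower, or 3 lower without TAC WT 1. The share called was 35.7%, close to the 33.0% of all genes. Ide, an insulin-degrading enzyme, was at 39.6, 45.6, 36.3 and 31.2 CPM in TAC KO and 20.3, 20.5, 14.8 and 17.4 CPM in TAC WT (log2 1.06, SE 0.11, adjusted p = 3.903e-05). Fgfbp3, a carrier of fibroblast growth factors also on chromosome 19, was at 3.09, 3.73, 2.96 and 1.95 CPM against 1.04, 0.893, 1.18 and 0.845 CPM (log2 1.55, SE 0.21). Both lie in a segment whose copy number is known to vary among mice of the C57BL/6J strain. Wdfy1, an endosomal adaptor, was at 8.21, 23.9, 25.0 and 34.3 CPM against 50.2, 41.6, 48.1 and 57.0 CPM (log2 -1.10, SE 0.27). The strain background of the groups is not given in the sources used here, and its part in these values was not tested.

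Genes with a called difference of at least 2-fold were found on all autosomes, at 1.49% of tested genes on chromosome 5 and up to 4.70% on chromosome 4, against 2.91% over all. Within 5 Mb of Nron on chromosome 2 they were 1 of 133 tested genes (0.752%), while 45 of the 133 were called at any size (33.8%), close to the 33.0% of all genes. Of 5 tested coding genes that lie up to 500 kb from Nron, 2 were called and both were lower. Zbtb34 was at 5.39, 5.79, 5.79 and 4.78 CPM in TAC KO and 8.20, 7.05, 7.18 and 7.24 CPM in TAC WT (log2 -0.45, SE 0.11, adjusted p = 0.00661). Zbtb43 was at 19.96 to 24.9 CPM against 23.5 to 32.3 CPM and overlapped (log2 -0.31, SE 0.10, adjusted p = 0.0263). Its call was lost with the trends removed (adjusted p = 0.05004), and when any one of 4 libraries was left out, namely 1 and 4 of TAC KO and 2 and 4 of TAC WT (adjusted p from 0.068 to 0.0811). Pbx3 did not pass as counted, but passed with the trends removed (log2 0.29, adjusted p = 0.0222), against a log2 difference of 0.05 as counted. Mvb12b, the gene in which Nron lies, was at 37.9, 32.7, 28.5 and 32.8 CPM against 29.2, 32.5, 24.1 and 25.6 CPM and did not pass (log2 0.24, SE 0.10, adjusted p = 0.0686), but passed without TAC KO 3 (adjusted p = 0.027) and without TAC WT 2 (adjusted p = 0.0179).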

How the data were processed

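Polyadenylated RNA of 12 mouse heart libraries was sequenced, and TAC KO, TAC WT and Sham WT hold 4 libraries each, grouped by the treatment label. The deposited values are raw whole-number counts per gene for each library, with 54146 records, of which 67 have no symbol in the annotation used here. Per the submitters' processing notes the tools included Trim Galore 0.5.0, STAR, featureCounts 1.6.4 and DESeq2 with the build GRCm38; their roles, the strand setting and the annotation release are not given in the sources used here. Library preparation is per the labels' protocols. Replicates were numbered in accession order.

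All 12 libraries were fitted in edgeR 4.0.16 (R 4.3.3) with TMM scaling, filterByExpr and the quasi-likelihood F-test of TAC KO against TAC WT, and p-values were adjusted by Benjamini and Hochberg over all tested genes. Every adjusted p printed for a gene comes from edgeR unless another tool is named. GC content and exonic length came from the annotation and transcripts of GRCm38. The trends were removed as offsets from natural splines with 5 degrees of freedom. Alternatives were RLE and upper-quartile scaling, other low-count filters, DESeq2 1.42.0, limma 3.58.1 voom, the 8 TAC libraries alone, a test against a 1.5-fold minimum and leaving out each TAC library. Library measures were compared by exact permutation tests. The scripts were tested on simulated data.

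Named genes were Tnni3k, Akt1, Nppa and Nron, the genes of highest and lowest log2 change that passed with at least 1 CPM, an established symbol and no overlap, the genes of largest rise and fall in mean CPM, the 6 list members of smallest p at most, with members that did not pass, genes within 500 kb of Nron, genes with a near-identical copy, and genes found in one TAC group alone. Fkbp4, Hspb1 and Cirbp fall outside this rule and were chosen after their values were seen, as was the search for the CArG box. Gene lists and members were chosen with earlier results of these data known, so their directions are not independent evidence. A near-identical copy had at least 95% identity over at least 50% of the transcript, and 13 of the 114 named genes with a fit had one. Akt2, Hspb1 and Trim30a were among these 13, so their reads could be split with a copy. An exon of another gene overlapped 31 of the 114, in 30 cases on the opposite strand, so reads of such pairs may be mixed. Promoters are from the RefSeq table for GRCm38.p6. The limit of 3 counts behind a 0 covers counting error only.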

Additional observations from a re-analysis of the deposited data

Results flagged for a closer look

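In groups of 4 libraries, 16 values lay so far from the other 3 that Dixon's criterion at the 95% level was passed. The number of groups examined was 240, over every gene named above that had a fit and the library measures in the TAC groups. For independent groups chance alone gives such a value in about 1 of 20. Genes measured in the same library are not independent, so that share cannot be set against these 16 values. TAC KO 1 gave 7 of them, with the highest Dbp (208 CPM), Per2 (30.1 CPM), Herpud1 (213 CPM) and GC trend (0.382), and the lowest Akt1 (230 CPM), Synpo2l (236 CPM) and Trdn (254 CPM). TAC KO 4 had the lowest Rpl26 (50.7 CPM) and the highest Gm15772 (24.6 CPM), and TAC KO 3 the highest Egr3 (5.42 CPM).

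In TAC WT the values came from all 4 libraries. TAC WT 1 was highest in Zbtb34 (8.20 CPM), and TAC WT 2 in Adh1 (5.36 CPM). TAC WT 3 was highest in Flt1 (267 CPM) and Hsp90aa1 (264 CPM). TAC WT 4 was lowest in Igfals (0.257 CPM) and highest in Smad7 (40.7 CPM). Apart from Dbp, Per2 and the GC trend, these are values of genes called between the groups, and of them Gm15772 alone lost its call when 1 library was left out.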

How the results depend on the processing

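The number of genes called stayed within 1.5 times of 5110 under each change of scaling, filter, tool or offset, from 4019 with the 8 TAC libraries alone to 5225 with DESeq2 and with upper-quartile scaling, and it was 3963 to 5080 when 1 library was left out (1816 to 2413 higher, 2147 to 2697 lower). A test against a 1.5-fold minimum called 128 genes, 62 higher and 66 lower, since it asks for a larger change, and 69 of the 104 called named genes were not called by it. Of those 104, 102 kept their call in every fit that left out 1 library, and 103 with both trends removed. The length trend between the groups ran from -0.331 to -0.259 when 1 library was left out, and without any one TAC KO library its exact p was 0.0571; the GC trend ran from 0.222 to 0.330. Genes that had not passed changed sign in some fits: Myh6 to 0.043 with the length trend removed, Per2 to -0.55 with voom, and others when 1 library was left out, where Myh6 ran from -0.073 to 0.019, Dbp from -0.47 to 1.43, Per2 from -1.01 to 0.39 and Arntl from -0.38 to 0.19. The cause of these changes was not tested. Il6 and Fos passed with no low-count filter (adjusted p = 0.011 and 0.022), and Mvb12b passed with upper-quartile scaling (adjusted p = 0.0422) and with the length trend removed (adjusted p = 0.013). With the 8 TAC libraries alone Gm15772 and Zbtb43 did not pass (adjusted p = 0.0713 and 0.0627), and Zbtb43 did not with voom (adjusted p = 0.0528) or with the length trend removed (adjusted p = 0.0506). Pbx3 passed with the GC trend removed (adjusted p = 0.0325). No paired analysis was possible because the titles carry one identifier per library and no replicate number shared between groups. With 4 libraries in each group an exact test of a single value cannot go below 0.0286, and levels under about 0.1 CPM rest on 3 counts or fewer.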

Other observations

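Several gene groups outside the comparisons above also held called genes, and their counts are read against 15.7% called higher and 17.3% called lower over all tested genes. Of 18 genes of creatine and NAD metabolism 8 were called higher in TAC KO and 1 lower, with a median log2 difference of 0.24. Ckm, the muscle creatine kinase that buffers ATP, was at 2548, 2627, 2295 and 2523 CPM in TAC KO and 1600, 1682, 1704 and 1372 CPM in TAC WT, with no overlap (log2 0.65, SE 0.08, adjusted p = 8.225e-05). Nampt, the rate-limiting enzyme of NAD salvage, was at 123 to 192 CPM against 77.9 to 112 CPM (log2 0.56, SE 0.13). Nmrk2, a kinase of another route into NAD, was lower as given above. Of 17 cardiac transcription factors 4 were higher and 5 lower, or 4 and 3 with GC and length trends removed. Mef2c, a factor that builds muscle gene programmes, was at 59.0, 59.8, 56.8 and 56.8 CPM against 90.02, 80.8, 85.1 and 78.7 CPM, a log2 difference of -0.53 that was -0.25 with the trends removed. Hopx, a cofactor that restrains serum response factor, was at 157 to 227 CPM against 85.8 to 136 CPM (log2 0.69, SE 0.14), and Gata6 at 51.2 to 65.6 CPM against 34.5 to 44.0 CPM (log2 0.55, SE 0.12).

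Of 24 genes of the integrated stress and unfolded protein responses 4 were higher and 5 lower, or 3 and 8 with the trends removed. Herpud1, which helps to clear misfolded proteins from the endoplasmic reticulum, was at 213, 141, 142 and 147 CPM in TAC KO and 75.6, 116, 109 and 72.1 CPM in TAC WT (log2 0.78, SE 0.16). Among 23 muscle ubiquitin ligases and autophagy genes 8 were higher and 2 lower, with Ulk1, the kinase that starts autophagy, at 84.6 to 109 CPM against 51.0 to 71.3 CPM (log2 0.66, SE 0.11). Of 34 proteasome genes 8 were higher and 1 lower, or 5 and 1 with the trends removed and 3 higher without TAC KO 4 or TAC WT 1. Cell cycle genes gave 1 higher and 2 lower of 28. Ccnd1, a cyclin that also rises in growing heart muscle cells, was at 73.8, 68.1, 66.9 and 70.9 CPM against 158, 108, 153 and 135 CPM (log2 -0.99, SE 0.10, adjusted p = 3.275e-05). Complement and antigen presentation genes gave 1 higher and 1 lower of 21, or 3 higher without TAC WT 3, and atrial markers 1 and 3 of 6, Nppa among the lower ones.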
